A study of Mus musculus with 22 samples.

Results

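The genes described here are those of sterol and fatty acid synthesis: the enzymes that build cholesterol, the proteins that control the SREBP pathway or carry sterol, and the enzymes that make, lengthen and desaturate fatty acids. The list was chosen by function, but with earlier results of these data known. It held 18 cholesterol synthesis genes, 6 genes of SREBP regulation and sterol transfer and 8 genes of fatty acid synthesis. Of the 32 genes, 31 were represented by a probe set of their own, out of 19938 genes measured. Acat2 was the gene without one and was not analysed here. All 31 lay above the background level in every array. Their lowest value was 6.18, for Pmvk, on the log2 scale, and background was set at 4.88, the highest level in female samples of the Y-linked gene Eif2s3y.

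Cells build cholesterol from acetyl-CoA through mevalonate, isoprenoids, squalene and lanosterol, and build fatty acids from acetyl-CoA through malonyl-CoA. Both routes are driven by SREBP transcription factors, which are made as membrane proteins, escorted by SCAP, held back in the endoplasmic reticulum by INSIG proteins when sterols are plentiful, and cut free when sterols are scarce. SREBP-1, from Srebf1, acts mainly on fatty acid genes and SREBP-2, from Srebf2, mainly on cholesterol genes.

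Expression was measured with 1 Affymetrix gene array for each of 22 samples of mouse embryonic germ (EG) cells, which are pluripotent cells derived from the germ cell lineage of embryonic day 8.5 embryos, and embryonic stem (ES) cells, which come from embryos before implantation. All samples carried the mixed 129SvEv x Oct4-delta-PE-GFP transgenic background, and per the series text all lines came from genetically identical embryos. EG 2i samples (n = 4, 3 female) were derived directly in 2i, EG 2is samples (n = 4, 2 female) had 48 hours of serum first and then 2i, and EG FCS samples (n = 4, 1 female) were derived in fetal calf serum. ES 2i and ES FCS samples (n = 5 and 2 female in each) were kept in those same media, and ES lines were also switched between media once established, so that ES samples of both cultures may share lines. 2i is serum-free N2B27 medium that holds PD0325901, which inhibits MEK, CHIR99021, which inhibits GSK3, and leukaemia inhibitory factor, used on laminin. FCS medium held 15% serum and the same factor, and was used on mouse embryonic fibroblast feeder cells. Medium, inhibitors, serum and feeder layer changed together, so their parts in any difference between cultures cannot be told apart. The cell-type label reads EGCs for all 22 arrays, including the 10 that the titles and source names call ES. Those 10 were analysed as ES.

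The pluripotency genes Pou5f1, Nanog and Sox2 were at 11.38 to 11.70, 11.35 to 12.64 and 11.30 to 11.84 in the 22 arrays on the log2 scale. Nanog separated the cultures, at 12.26 to 12.64 in EG 2i and 12.33 to 12.55 in EG 2is against 11.35 to 12.16 in EG FCS samples, and at 12.24 to 12.44 in ES 2i against 11.52 to 12.12 in ES FCS samples. Over 21 fibroblast markers, the mean difference from each gene's own mean over the 22 arrays ranged from −0.49 to −0.26 in EG 2i, EG 2is and ES 2i samples, against 0.12 to 0.96 in EG FCS and ES FCS samples. Of the 21, 11 fell in EG 2i, 13 in EG 2is and 13 in ES 2i against FCS, while Fn1 rose in EG 2is and Fn1, Sparc and Timp1 rose in ES 2i. Of the defining fibroblast markers, Lum was at or below background in all 22 arrays, Col1a2 was at most 5.17 in EG 2i against up to 7.40 in EG FCS samples, and Pdgfrb had a median of 5.46 in EG 2i against 5.15 in EG FCS samples. Over 15 markers of primitive endoderm, the same measure was −0.33 to −0.18 in EG 2i against 0.28 to 1.15 in EG FCS samples, and −0.45 to −0.03 in ES 2i against −0.04 to 0.25 in ES FCS samples. Of these 15, 7 fell in EG 2i, 9 in EG 2is and 4 in ES 2i, and 2, Lama1 and Sparc, rose in ES 2i. Of the defining markers, Gata4 (5.70 against 5.54) and Sox17 (4.97 against 4.85) had higher medians in EG 2i than in EG FCS samples. Gata6 (6.13 against 6.34) and Foxa2 (5.07 against 5.41) had lower ones. In ES 2i against ES FCS samples, medians were higher for Gata4 (5.51 against 5.14) and Gata6 (5.65 against 5.52). They were lower for Sox17 (4.71 against 4.75) and Foxa2 (5.49 against 5.54). Sox17 was near the floor. It lay at or below background in 2 of 4 EG FCS, 1 of 4 EG 2i, 5 of 5 ES FCS and 5 of 5 ES 2i samples. The part of these markers in the changes of the lipid genes was not tested. In bulk RNA, fewer cells of a type and less RNA per cell cannot be told apart. Labelled replicates may include technical ones, so p-values measure only the spread between labelled samples. Batch 1 held 16 arrays, with all EG samples and ES samples 1 and 2 of each culture, and batch 2 held the other 6 ES arrays. Over all genes, 4764 of 19938 were called for EG 2i against EG FCS, 5108 for EG 2is against EG FCS and 6298 for ES 2i against ES FCS.

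The sequences from which transcription of these genes starts were read from RefSeq (mouse build GRCm38.p6), as windows of 250 bases before and 50 bases after each start site. Such windows were found for 24 of the 31 genes. None was found for Fdps, Fdft1, Sqle, Stard4, Scd1, Scd2 and Fads1, so the motif counts below leave these genes out. 4 windows are shown because they span the pathway, from an early sterol step to the regulator and Fads2, the only desaturase with a window. Capitals mark a sterol regulatory element in its loose form, TCACNCCAC, and the CCAAT box that binds NF-Y, on either strand, so that ATTGG is a CCAAT box on the other strand. The windows are chr13:119690101-119690400 on the plus strand for Hmgcs1, chr8:64733529-64733828 on the minus strand for Msmo1, chr11:60210422-60210721 on the minus strand for Srebf1, which has 3 windows, and chr19:10101454-10101753 on the minus strand for Fads2.
Hmgcs1: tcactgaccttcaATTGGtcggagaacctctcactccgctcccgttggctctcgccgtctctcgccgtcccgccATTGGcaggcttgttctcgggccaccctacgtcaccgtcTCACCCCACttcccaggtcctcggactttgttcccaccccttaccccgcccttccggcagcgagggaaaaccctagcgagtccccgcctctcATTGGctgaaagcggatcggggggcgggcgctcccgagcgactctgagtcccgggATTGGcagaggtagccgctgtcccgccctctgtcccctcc
Msmo1: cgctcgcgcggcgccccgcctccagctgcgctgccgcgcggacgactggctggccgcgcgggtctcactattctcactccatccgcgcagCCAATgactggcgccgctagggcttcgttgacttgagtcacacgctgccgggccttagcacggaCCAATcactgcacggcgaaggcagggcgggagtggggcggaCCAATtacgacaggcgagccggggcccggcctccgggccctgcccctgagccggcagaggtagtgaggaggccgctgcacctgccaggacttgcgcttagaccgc
Srebf1: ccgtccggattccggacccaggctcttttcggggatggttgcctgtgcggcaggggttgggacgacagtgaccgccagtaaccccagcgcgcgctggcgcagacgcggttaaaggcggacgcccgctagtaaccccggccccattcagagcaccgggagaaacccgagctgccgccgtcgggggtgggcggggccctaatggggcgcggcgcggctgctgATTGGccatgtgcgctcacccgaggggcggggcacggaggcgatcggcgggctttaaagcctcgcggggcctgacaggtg
Fads2: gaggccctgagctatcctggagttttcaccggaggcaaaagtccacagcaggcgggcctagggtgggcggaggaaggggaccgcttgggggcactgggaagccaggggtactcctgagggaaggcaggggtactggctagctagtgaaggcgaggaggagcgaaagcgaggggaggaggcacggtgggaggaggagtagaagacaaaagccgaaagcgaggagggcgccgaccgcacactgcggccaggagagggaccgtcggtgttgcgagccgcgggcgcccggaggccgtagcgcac
Hmgcs1 held 1 loose sterol element, 137 bases before the start site, and 4 CCAAT boxes, and Msmo1 held 3 CCAAT boxes. This Srebf1 window held 1 CCAAT box, and the Fads2 window held 0 of either motif. The strict form of the element (TCACNCCAC with N as C and an A before it) was in 0 of the 24 genes and in 0.064% of the 15614 genes on the array that had a window. The loose element was in 1 of 24, or 4.17%, and in 1.40% of array genes. CCAAT was in 20 of 24, or 83.3%, against 41.7% of array genes, and the GC box GGGCGG was also in 20 of 24, against 52.9% of array genes. The E-box CACGTG was in 5 of 24, or 20.8%, against 9.50%. Among genes that rose in at least 1 culture comparison 13 of 15 held CCAAT, and among the others 7 of 9 did. These matches are a description of letters in fixed windows and were not tested.

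More genes of the list were higher than lower in 2i and 2is cultures. In EG 2i against EG FCS samples, 14 of the 31 genes rose and 2 fell, which is 51.6% of them called, beside 23.9% of all genes called in either direction, 11.4% higher and 12.5% lower. In EG 2is against EG FCS samples, 20 rose and 0 fell, 64.5% of the list, beside 25.6% of all genes, 12.7% higher and 12.9% lower. In ES 2i against ES FCS samples, 18 rose and 0 fell, 58.1% of the list, beside 31.6% of all genes, 16.6% higher and 14.9% lower. A call is a limma adjusted p under 0.05 over all 19938 genes, in 1 fit with terms for group, batch and sex. The median log2 difference of the 31 genes was 0.29, 0.45 and 0.31 in these comparisons, against 0.01, −0.01 and 0.00 for all genes.

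Genes that rose in all 3 comparisons numbered 13: Fdft1, Msmo1 and Tm7sf2 of cholesterol synthesis, Insig1, Insig2, Stard4 and Srebf1 of the regulators, and Acly, Scd1, Scd2, Fads1, Fads2 and Elovl6 of fatty acid synthesis. Both EG comparisons share the EG FCS samples, so their agreement is not independent. The samples of the compared groups did not overlap, with 2i or 2is higher, for 10 of 31 genes in EG 2i (11.4% of all genes), 17 in EG 2is (12.2%) and 15 in ES 2i (11.6%). They did not overlap with EG 2i lower for 3 genes, beside 12.8% of all genes. For EG 2is and ES 2i that count was 0, beside 12.3% and 10.6% of all genes. Within the ES samples, batch 1 alone (2 against 2) gave 8 called members, 25.8% beside 12.3% of all genes, and batch 2 alone (3 against 3) gave 12, 38.7% beside 30.7% of all genes.

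**Figure D1:**
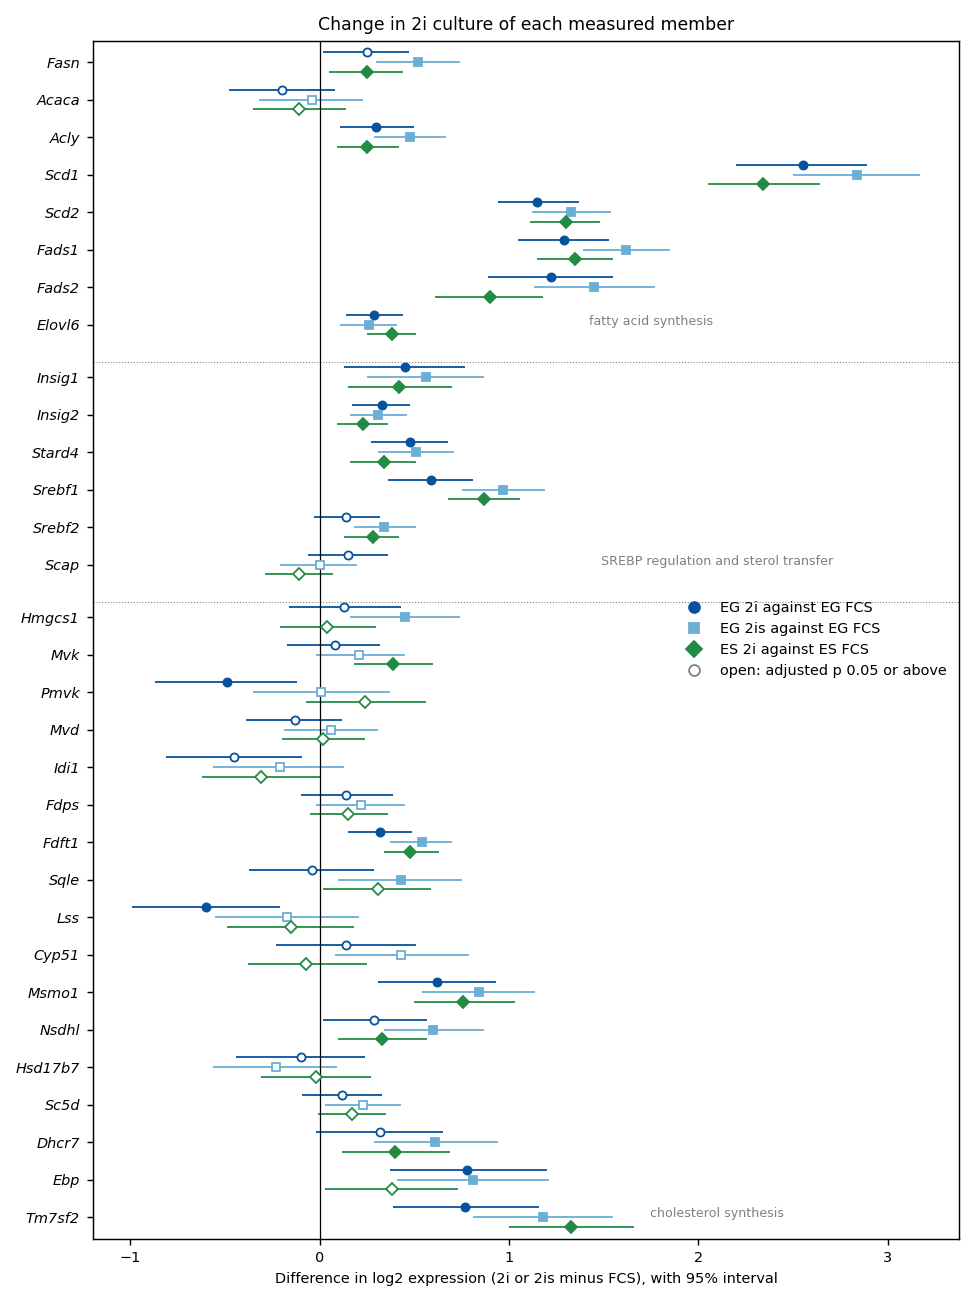
Difference in log2 expression of each of the 31 measured genes, with limma's 95% interval, for EG 2i against EG FCS (circles), EG 2is against EG FCS (squares) and ES 2i against ES FCS (diamonds). Filled symbols mark an adjusted p under 0.05. Scd1 lies farthest to the right in all 3 comparisons, at 2.55, 2.84 and 2.34, and the filled symbols left of 0 are those of Pmvk and Lss in EG 2i.

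Of the 8 fatty acid synthesis genes, 6 rose in EG 2i, 7 in EG 2is and 7 in ES 2i, and 0 fell, so that 75%, 87.5% and 87.5% were called beside 23.9%, 25.6% and 31.6% of all genes. The 4 desaturases, grouped after their values were seen, had the largest log2 differences of the 8 in all 3 comparisons. Scd1 and Scd2, stearoyl-CoA desaturases, put the first double bond into saturated fatty acids, and Fads1 and Fads2 add further double bonds to polyunsaturated ones.

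Scd1 was at 10.98, 10.80, 10.89 and 11.05 in the 4 EG 2i samples and at 11.62, 11.23, 11.09 and 11.05 in the 4 EG 2is samples, against 8.45, 9.03, 8.16 and 8.14 in the 4 EG FCS samples, in log2 units. In ES cells it was at 11.30, 11.29, 11.25, 11.28 and 11.04 in 2i, against 8.69, 8.73, 8.82, 9.03 and 9.21 in FCS. Every 2i and 2is value lay above every FCS value of either origin. The log2 difference was 2.55 ± 0.17 (SE) in EG 2i, a 5.84-fold change (adjusted p = 6.0e-09), 2.84 ± 0.16 in EG 2is (7.14-fold, adjusted p = 5.7e-10) and 2.34 ± 0.14 in ES 2i (5.07-fold, adjusted p = 7.2e-10). Ranked by rise among 19938 genes, Scd1 was number 9 in EG 2i, number 6 in EG 2is and number 21 in ES 2i.

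Scd2, the isoform prominent in brain and in early life in mice, was at 12.08, 11.95, 12.10 and 11.92 in EG 2i and 12.37, 12.41, 11.98 and 12.09 in EG 2is samples, against 10.94, 11.21, 10.75 and 10.74 in EG FCS samples. In 2i, ES cells had 12.07, 12.11, 12.16, 12.35 and 12.23, against 10.81, 10.85, 10.77, 10.95 and 11.04 in ES FCS samples. Again all 13 samples in 2i or 2is were above all 9 in FCS. The rises were 1.15 ± 0.10, 1.33 ± 0.10 and 1.30 ± 0.09 (log2 ± SE; adjusted p = 2.6e-07, 1.8e-08 and 3.2e-09 for EG 2i, EG 2is and ES 2i).

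Fads1, the delta-5 desaturase, had levels of 10.02, 9.91, 10.04 and 10.19 in EG 2i and 10.59, 10.54, 10.26 and 10.20 in EG 2is samples, against 8.65, 9.03, 8.72 and 8.79 in EG FCS samples. In ES cells the levels were 10.36, 10.25, 10.74, 10.42 and 10.27 in 2i, against 9.09, 9.17, 8.96, 8.94 and 9.13 in FCS. Groups did not overlap in any of the 3 comparisons. Its log2 differences were 1.29 ± 0.11 in EG 2i, 1.62 ± 0.11 in EG 2is and 1.35 ± 0.10 in ES 2i (SE; adjusted p = 2.3e-07, 6.7e-09 and 6.7e-09).

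Fads2, the delta-6 desaturase that acts before Fads1, was at 9.96, 9.92, 9.94 and 10.15 in EG 2i and 10.53, 10.22, 10.18 and 10.0 in EG 2is samples, against 8.91, 9.28, 8.64 and 8.34 in EG FCS samples. ES 2i samples had 10.06, 10.21, 10.51, 10.27 and 10.02, against 9.07, 9.26, 9.46, 9.37 and 9.43 in ES FCS samples. EG FCS samples varied more than the other groups, and no 2i or 2is value fell among the FCS values of its origin. The differences were 1.22 ± 0.16, 1.45 ± 0.15 and 0.90 ± 0.14 (log2 ± SE; adjusted p = 1.7e-05, 1.1e-06 and 3.9e-05). All 12 desaturase calls held under every alternative setting and with any 1 sample left out.

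**Figure D2:**
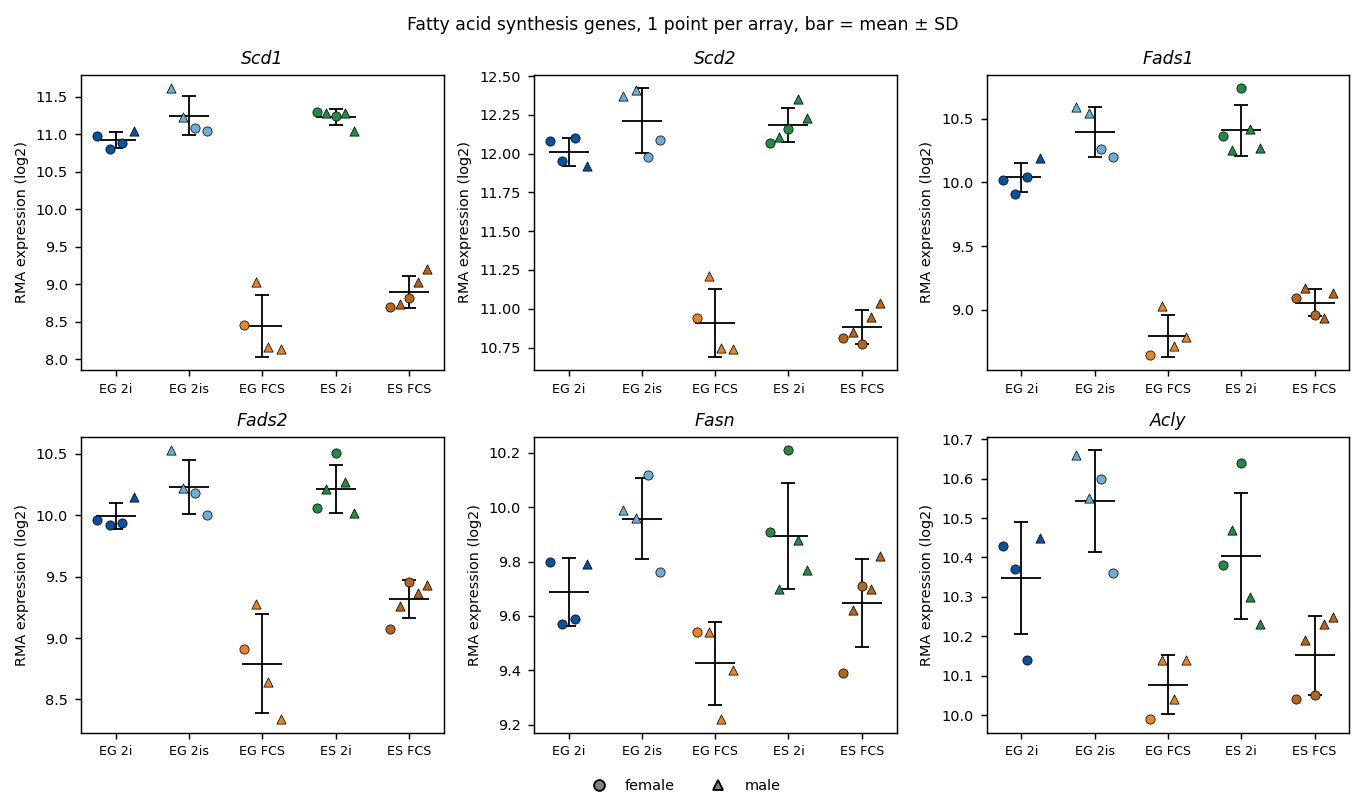
RMA expression (log2) of 6 fatty acid synthesis genes on each array, with circles for female and triangles for male samples and bars for the group mean ± SD (n = 4 in EG groups and 5 in ES groups). Scd1, Scd2, Fads1 and Fads2 are higher in every 2i or 2is sample than in every FCS sample of the same origin, and the gaps for Fasn and Acly are smaller.

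Elovl6, which lengthens saturated fatty acids by a further carbon pair, was at 9.62, 9.46, 9.56 and 9.49 in EG 2i and 9.28, 9.63, 9.48 and 9.56 in EG 2is samples, against 9.23, 9.25, 9.09 and 9.24 in EG FCS samples. For ES cells the values were 9.62, 9.66, 9.61, 9.52 and 9.45 in 2i, against 9.41, 9.14, 9.21, 9.12 and 9.09 in ES FCS samples. The groups did not overlap in any comparison, although the changes were small: 0.29 ± 0.07 in EG 2i, 0.26 ± 0.07 in EG 2is and 0.38 ± 0.06 in ES 2i (log2 ± SE; adjusted p = 0.00677, 0.00917 and 1.1e-04). The EG 2is call ended without EG 2is sample 2 (adjusted p = 0.0569) and in a fit of those groups alone (0.0631), and the ES 2i call ended in batch 1 alone (0.054).

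Acly, the ATP citrate lyase that supplies cytosolic acetyl-CoA to both routes, had 10.43, 10.37, 10.14 and 10.45 in EG 2i and 10.66, 10.55, 10.60 and 10.36 in EG 2is samples, against 9.99, 10.14, 10.04 and 10.14 in EG FCS samples. ES cells had 10.38, 10.47, 10.64, 10.30 and 10.23 in 2i, against 10.04, 10.19, 10.05, 10.23 and 10.25 in ES FCS samples. EG 2is lay clear of EG FCS, while EG 2i and ES 2i overlapped their FCS groups. The rises were 0.30 ± 0.09, 0.48 ± 0.09 and 0.25 ± 0.08 for EG 2i, EG 2is and ES 2i (log2 ± SE; adjusted p = 0.0241, 5.6e-04 and 0.0201). The EG 2i call ended when any 1 of EG FCS samples 1 and 3 or EG 2i samples 1, 2 and 4 was left out (adjusted p = 0.0501 to 0.0932) and under 2 other settings (0.0524 and 0.131). The ES 2i call ended without any 1 of ES FCS samples 1 and 3 or ES 2i samples 2 and 3 (adjusted p = 0.0507 to 0.0785), within each batch alone (0.0707 and 0.236) and under 2 other settings (0.052 and 0.131).

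Fasn, the fatty acid synthase, was at 9.80, 9.57, 9.59 and 9.79 in EG 2i and 9.99, 9.96, 10.12 and 9.76 in EG 2is samples, against 9.54, 9.54, 9.22 and 9.40 in EG FCS samples. In ES cells it was at 9.91, 9.70, 10.21, 9.88 and 9.77 in 2i, against 9.39, 9.62, 9.71, 9.70 and 9.82 in FCS. EG 2i and EG 2is samples all lay above the EG FCS samples, and the ES groups overlapped. It rose in EG 2is by 0.52 ± 0.10 (adjusted p = 8.6e-04) and in ES 2i by 0.25 ± 0.09 (adjusted p = 0.0468), and the EG 2i difference of 0.25 ± 0.11 missed the threshold (adjusted p = 0.109). The ES 2i call ended with any 1 of 7 samples left out, ES FCS 1, 3 and 4 and ES 2i 1, 2, 3 and 4 (adjusted p = 0.0525 to 0.159), within each batch (0.214 and 0.193) and under 6 other settings (0.0512 to 0.181). Acaca, the acetyl-CoA carboxylase that makes malonyl-CoA for Fasn, gave −0.20, −0.04 and −0.11 (log2) and was called in 0 of the 3 comparisons. Its intervals were −0.48 to 0.08 in EG 2i, −0.32 to 0.23 in EG 2is and −0.35 to 0.14 in ES 2i.

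Of the 6 genes of SREBP regulation and sterol transfer, 4 rose in EG 2i, 5 in EG 2is and 5 in ES 2i, and 0 fell. These are 66.7%, 83.3% and 83.3% called, beside 23.9%, 25.6% and 31.6% of all genes. Srebf1 changed most among them, Srebf2 was not called in EG 2i, and Scap was called in 0 comparisons.

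Srebf1, which encodes SREBP-1, was at 7.67, 7.64, 7.62 and 7.79 in EG 2i and 8.40, 8.01, 8.06 and 7.83 in EG 2is samples, against 7.19, 7.20, 7.11 and 7.0 in EG FCS samples. ES 2i samples had 7.96, 7.61, 8.16, 8.23 and 8.09, against 6.92, 7.20, 7.15, 7.22 and 7.20 in ES FCS samples. No sample in 2i or 2is reached down to the FCS range, and the EG 2i values lay close together and below all EG 2is values. The log2 differences were 0.59 ± 0.11 in EG 2i, 0.97 ± 0.10 in EG 2is and 0.87 ± 0.09 in ES 2i (SE; adjusted p = 5.1e-04, 1.4e-06 and 6.9e-07), and all 3 calls held under every alternative.

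Srebf2, which encodes SREBP-2, had 9.57, 9.57, 9.62 and 9.47 in EG 2i and 9.86, 9.82, 9.71 and 9.68 in EG 2is samples, against 9.26, 9.46, 9.58 and 9.46 in EG FCS samples. ES cells in 2i had 9.65, 9.78, 9.93, 9.71 and 9.59, against 9.46, 9.56, 9.35, 9.39 and 9.51 in ES FCS samples. EG 2is and ES 2i stood clear of their FCS groups, and EG 2i overlapped. It rose by 0.34 ± 0.08 in EG 2is (adjusted p = 0.00269) and 0.28 ± 0.07 in ES 2i (adjusted p = 0.00397), and the EG 2i difference was 0.14 ± 0.08 (adjusted p = 0.227). In ES batch 1 alone the call ended (adjusted p = 0.197).

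Stard4, which carries cholesterol between membranes, was at 8.62, 8.55, 8.58 and 8.58 in EG 2i and 8.86, 8.68, 8.38 and 8.55 in EG 2is samples, against 8.14, 8.20, 8.21 and 7.91 in EG FCS samples. In ES samples it was at 8.40, 8.57, 8.74, 8.41 and 8.39 in 2i, against 8.19, 8.18, 8.15, 8.14 and 8.18 in FCS. The 3 comparisons showed no overlap, and the values within EG 2i and within ES FCS lay close together. It rose by 0.48 ± 0.10, 0.51 ± 0.09 and 0.34 ± 0.08 in EG 2i, EG 2is and ES 2i (log2 ± SE; adjusted p = 0.0013, 4.5e-04 and 0.00386). ES batch 1 alone gave an adjusted p of 0.148.

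Both INSIG genes, whose products hold SCAP and its SREBP cargo back, rose in all 3 comparisons. Insig1 averaged 11.18 ± 0.17 in EG 2i and 11.29 ± 0.22 in EG 2is, against 10.73 ± 0.20 in EG FCS samples (SD, n = 4 each), and 11.20 ± 0.29 in ES 2i against 10.78 ± 0.13 in ES FCS samples (SD, n = 5 each). Its log2 differences were 0.45, 0.56 and 0.42 (adjusted p = 0.0391, 0.00752 and 0.0174). The Insig1 call in EG 2i ended without any 1 of EG FCS samples 1, 3 and 4 or EG 2i samples 1, 2 and 3 (adjusted p = 0.0702 to 0.11) and under 3 other settings (0.0562 to 0.128). The Insig1 call in ES 2i ended without ES 2i sample 2 or 3 (0.0511 and 0.0648), within each batch (0.374 and 0.0512) and with a sex term in each culture (0.0772). Insig2 showed no overlap in any comparison and differed by 0.33, 0.31 and 0.23 (adjusted p = 0.00333, 0.00333 and 0.00979). Its EG 2i call ended in a fit of those groups alone (0.0654), and its ES 2i call ended within each batch alone (0.107 and 0.0626) and with quantile normalization repeated (0.12). Scap, the escort of SREBP, gave 0.15, 0.00 and −0.11, with intervals of −0.06 to 0.36, −0.21 to 0.20 and −0.29 to 0.07.

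**Figure D3:**
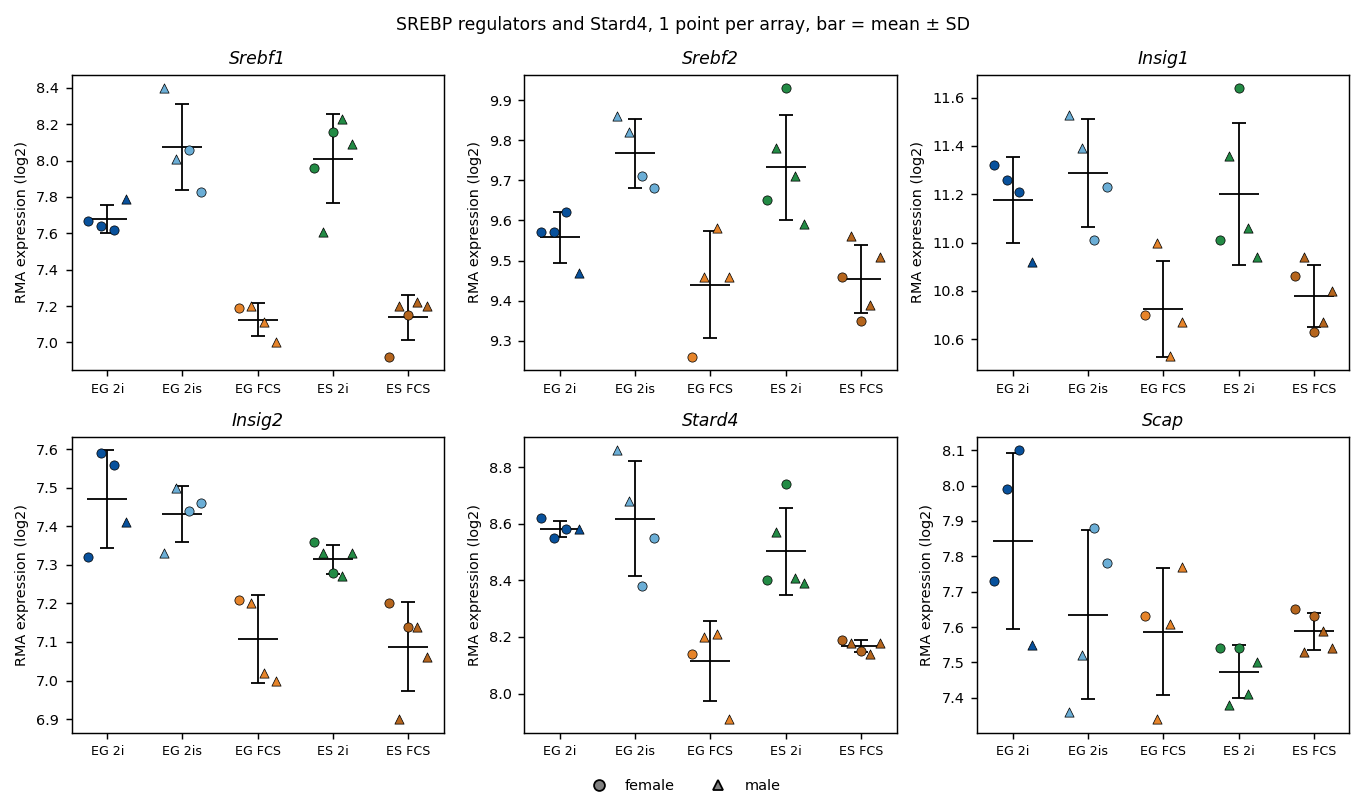
RMA expression (log2) of the SREBP regulators and Stard4 on each array, with circles for female and triangles for male samples and bars for the group mean ± SD (n = 4 in EG groups and 5 in ES groups). Srebf1, Stard4 and Insig2 separate 2i and 2is from FCS in both origins, and Scap does not.

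Of 17 measured cholesterol synthesis enzymes, 4 rose and 2 fell in EG 2i, 8 rose in EG 2is and 6 rose in ES 2i, with 0 falls in the last pair of comparisons. The share called in either direction was 35.3% in EG 2i, 47.1% in EG 2is and 35.3% in ES 2i, beside 23.9%, 25.6% and 31.6% of all genes. In ES 2i this share lay near that of all genes. All 6 ES 2i calls were higher, where 16.6% of all genes were called higher and 14.9% lower. The median log2 difference was 0.13, 0.43 and 0.24. Of the 6 enzymes from Hmgcs1 to Fdps, 0 rose in EG 2i, 1 in EG 2is and 1 in ES 2i, and of the 11 from Fdft1 onwards 4, 7 and 5 rose. With Pmvk and Lss, which fell in EG 2i, 16.7% of the 6 were called in each comparison, and 45.5%, 63.6% and 45.5% of the 11. This division of the pathway was made after the values were seen and was not tested.

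Hmgcs1, the HMG-CoA synthase, differed by 0.13 in EG 2i, 0.45 ± 0.14 (SE) in EG 2is and 0.04 in ES 2i (adjusted p = 0.561, 0.0188 and 0.838). The EG 2is call ended without EG FCS sample 3 or EG 2is sample 1 or 2 (adjusted p = 0.0555 to 0.0816) and without the sex term (0.0968). Mvk, the mevalonate kinase, rose in ES 2i by 0.39 ± 0.10 (adjusted p = 0.00456), where all 5 ES 2i samples lay above the 5 ES FCS samples. That call was not met in batch 1 (0.29) or batch 2 (0.0535) alone, and in EG cells Mvk gave 0.08 in EG 2i and 0.21 in EG 2is. Mvd, the decarboxylase, Idi1, the isopentenyl diphosphate isomerase, and Fdps, the farnesyl diphosphate synthase, were called in 0 comparisons. Idi1 had negative differences throughout, at −0.45 in EG 2i, −0.21 in EG 2is and −0.31 in ES 2i (adjusted p = 0.0657, 0.408 and 0.121). Its second probe set, not used in the fit, averaged 8.93 in EG 2i and 9.22 in EG 2is against 9.47 in EG FCS, and 9.41 in ES 2i against 9.62 in ES FCS samples.

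Pmvk, the phosphomevalonate kinase, was called lower in EG 2i. It averaged 6.45 ± 0.24 in EG 2i and 7.01 ± 0.38 in EG 2is, against 7.05 ± 0.17 in EG FCS samples, and 7.37 ± 0.33 in ES 2i against 7.12 ± 0.18 in ES FCS samples (SD). All 4 EG 2i values, 6.18 to 6.76, lay below the EG FCS range of 6.83 to 7.20. The log2 difference of −0.49 ± 0.18 was close to the threshold (adjusted p = 0.0495), and leaving out any 1 of the 8 samples of these groups ended the call (adjusted p = 0.0583 to 0.12). It also ended with a sex term in each culture (0.083) and with the replicate number as a block, where the difference was −0.37 (0.184). Some EG samples of equal number differ in labelled sex, so that block does not stand for a line. Lss, the lanosterol synthase that closes the sterol rings, also fell in EG 2i, where its mean was 7.80 ± 0.30 against 8.52 ± 0.22 in EG FCS samples without overlap. Its difference was −0.60 ± 0.19 (adjusted p = 0.0238), and the call ended without EG FCS sample 1 or 2 or EG 2i sample 3 or 4 (adjusted p = 0.0638 to 0.135), in batch 1 alone (0.0508) and with a sex term in each culture (0.06). Lss differed by −0.17 in EG 2is and −0.15 in ES 2i (adjusted p = 0.559 and 0.535).

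Fdft1, the squalene synthase that commits farnesyl diphosphate to sterols, was at 9.94, 9.75, 9.67 and 9.95 in EG 2i and 10.32, 10.28, 9.85 and 9.93 in EG 2is samples, against 9.45, 9.64, 9.73 and 9.61 in EG FCS samples. ES 2i samples had 10.12, 10.39, 10.21, 10.36 and 10.17, against 9.66, 9.81, 9.79, 9.73 and 9.85 in ES FCS samples. EG 2is and ES 2i did not overlap their FCS groups, whereas 1 EG 2i value lay within the EG FCS range. The rises were 0.32 ± 0.08 in EG 2i, 0.54 ± 0.08 in EG 2is and 0.48 ± 0.07 in ES 2i (log2 ± SE; adjusted p = 0.00666, 3.7e-05 and 2.1e-05). Without the sex term the EG 2i call ended (adjusted p = 0.122). The second Fdft1 probe set, not used in the fit, averaged 9.242 in EG 2i and 9.741 in EG 2is against 9.115 in EG FCS samples. In ES 2i it averaged 9.714, against 9.284 in ES FCS samples. For the probe set used, the EG 2i and EG FCS means were 9.828 and 9.606. Sqle, the squalene epoxidase, rose in EG 2is by 0.43 ± 0.15 (adjusted p = 0.0479). Removing EG FCS sample 3 or 4 or EG 2is sample 1, 2 or 3 ended the call (0.103 to 0.169), as it ended under 6 other settings (0.0541 to 0.092). Sqle gave −0.04 in EG 2i and 0.31 in ES 2i (adjusted p = 0.899 and 0.0956).

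Msmo1, the sterol C4-methyl oxidase, was at 10.92, 10.55, 10.20 and 10.56 in EG 2i and 11.09, 11.09, 10.51 and 10.60 in EG 2is samples, against 9.91, 10.28, 9.97 and 9.94 in EG FCS samples. In ES 2i the values were 10.78, 11.20, 11.04, 10.80 and 10.65, against 10.23, 10.36, 9.92, 10.14 and 10.01 in ES FCS samples. Only EG 2i overlapped, where its lowest sample was below the highest EG FCS sample. The rises were 0.62 ± 0.15 in EG 2i, 0.84 ± 0.14 in EG 2is and 0.76 ± 0.13 in ES 2i (log2 ± SE; adjusted p = 0.00469, 2.0e-04 and 1.1e-04). A fit of EG 2i and EG FCS samples alone gave an adjusted p of 0.0521.

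Tm7sf2, a sterol C14-reductase, had the largest rises of the cholesterol enzymes in EG 2is and ES 2i. It was at 7.58, 6.88, 6.69 and 7.91 in EG 2i and 8.21, 8.08, 7.62 and 7.29 in EG 2is samples, against 6.29, 6.65, 7.06 and 6.97 in EG FCS samples. ES 2i samples had 7.67, 8.15, 7.87, 8.18 and 7.99, against 6.86, 6.70, 6.21, 6.64 and 6.81 in ES FCS samples. In EG 2i, samples 2 and 3 lay within the EG FCS range and samples 1 and 4 above it. The log2 differences were 0.77 ± 0.18 in EG 2i, 1.18 ± 0.18 in EG 2is and 1.33 ± 0.16 in ES 2i (SE; adjusted p = 0.00425, 5.2e-05 and 2.3e-06), and without the sex term the EG 2i call ended (adjusted p = 0.138).

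Nsdhl, the X-linked sterol dehydrogenase that acts with Msmo1 in removing the C4 methyl groups, had 8.51, 8.85, 8.93 and 8.34 in EG 2i and 8.72, 8.72, 9.04 and 9.03 in EG 2is samples, against 8.35, 8.34, 8.0 and 8.06 in EG FCS samples. Levels in ES 2i were 8.87, 8.59, 9.37, 8.40 and 8.36, against 8.57, 8.37, 8.36, 8.35 and 8.28 in ES FCS samples. EG 2is lay above EG FCS, and the other pairs overlapped. It rose by 0.60 ± 0.13 in EG 2is (adjusted p = 0.00146) and 0.33 ± 0.11 in ES 2i (adjusted p = 0.0296), and EG 2i gave 0.29 ± 0.13 (adjusted p = 0.121). The ES 2i call ended without ES FCS sample 1 or 3 or ES 2i sample 2 or 3 (adjusted p = 0.0549 to 0.107), within each batch (0.254 and 0.19) and under 3 other settings (0.0834 to 0.248).

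Ebp, the X-linked sterol isomerase, rose in EG 2i by 0.78 ± 0.20 and in EG 2is by 0.81 ± 0.19 (log2 ± SE; adjusted p = 0.00632 and 0.00332) with no overlap. ES 2i gave 0.38 (adjusted p = 0.0984), and the EG 2i call ended without EG FCS sample 1, the female sample of that group (0.0712). Dhcr7, which makes cholesterol from 7-dehydrocholesterol, rose in EG 2is by 0.61 and in ES 2i by 0.40 (adjusted p = 0.00542 and 0.0285), and gave 0.32 in EG 2i (adjusted p = 0.17). Its ES 2i call ended without any 1 of ES FCS samples 1, 3 and 4 or ES 2i samples 2 and 3 (adjusted p = 0.0528 to 0.101), in batch 1 (0.383) and with quantile normalization repeated (0.0635). Cyp51, the lanosterol demethylase, Hsd17b7, a sterol ketoreductase, and Sc5d, a sterol desaturase, were called in 0 comparisons, with log2 differences between −0.23 (Hsd17b7 in EG 2is) and 0.43 (Cyp51 in EG 2is).

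**Figure D4:**
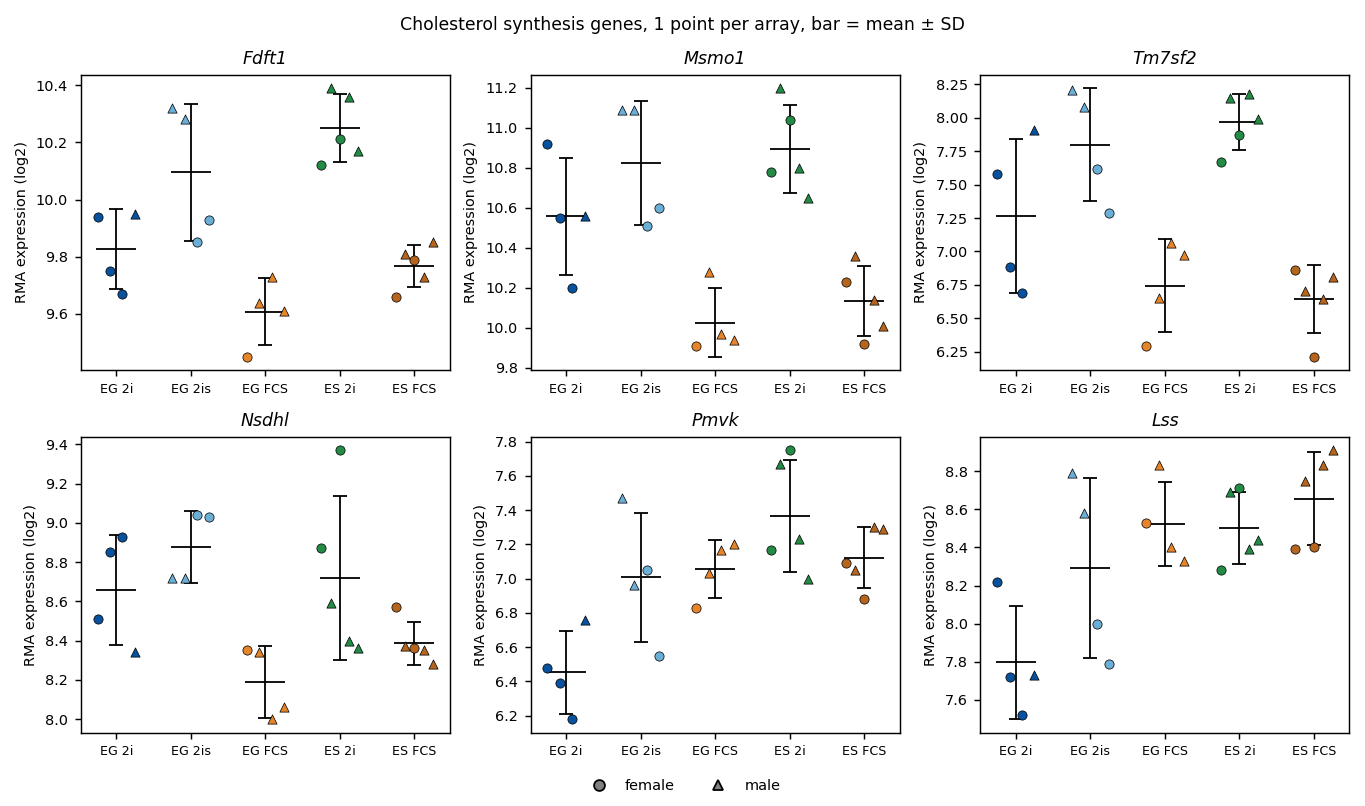
RMA expression (log2) of 6 cholesterol synthesis genes on each array, with circles for female and triangles for male samples and bars for the group mean ± SD (n = 4 in EG groups and 5 in ES groups). Tm7sf2 in EG 2i spans 6.69 to 7.91, from within the EG FCS range to above it, and Pmvk and Lss are lower in EG 2i than in EG FCS samples.

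Samples of 1 culture also differed among themselves. In EG 2is, 19 of the 31 genes were higher in both male samples (1 and 2) than in both female samples (3 and 4), beside 24.2% of all genes, and 12 of these 19 were cholesterol enzymes. Nsdhl, Ebp and Scap, 3 of 31, were lower in both males, beside 22% of all genes. With 2 samples of each sex, sex and line cannot be told apart. In ES 2i, with 3 male and 2 female samples, 2 of 31 genes were higher in every male sample (14.6% of all genes) and 4 were lower (12.7% of all genes). In ES FCS, with 3 male and 2 female samples, 10 of 31 genes were higher in every male sample and 4 were lower. Of those 10, 6 were cholesterol enzymes, Hmgcs1, Mvd, Idi1, Lss, Cyp51 and Dhcr7, which were also higher in both EG 2is males. Of these 6, only Hmgcs1 was also higher in every ES 2i male sample. The share of all genes was not counted for ES FCS samples, so it is not known whether 10 and 4 of 31 differ from it. Over all samples in 2i or 2is, Ebp was at 7.78 to 8.21 in 6 male and 8.13 to 9.02 in 7 female samples, and Nsdhl at 8.34 to 8.72 in those males and 8.51 to 9.37 in those females. The mean deviation of the cholesterol list was −0.09 to 0.36 in EG 2is samples, −0.29 to 0.04 in EG 2i samples and −0.26 to −0.04 in EG FCS samples, so that EG 2i and EG FCS overlapped. It was 0.02 to 0.41 in ES 2i and −0.12 to 0.02 in ES FCS samples. The fatty acid list did not overlap between cultures, at 0.14 to 0.27 in EG 2i and 0.28 to 0.54 in EG 2is against −0.80 to −0.36 in EG FCS samples, and at 0.29 to 0.57 in ES 2i against −0.54 to −0.28 in ES FCS samples.

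**Figure D5:**
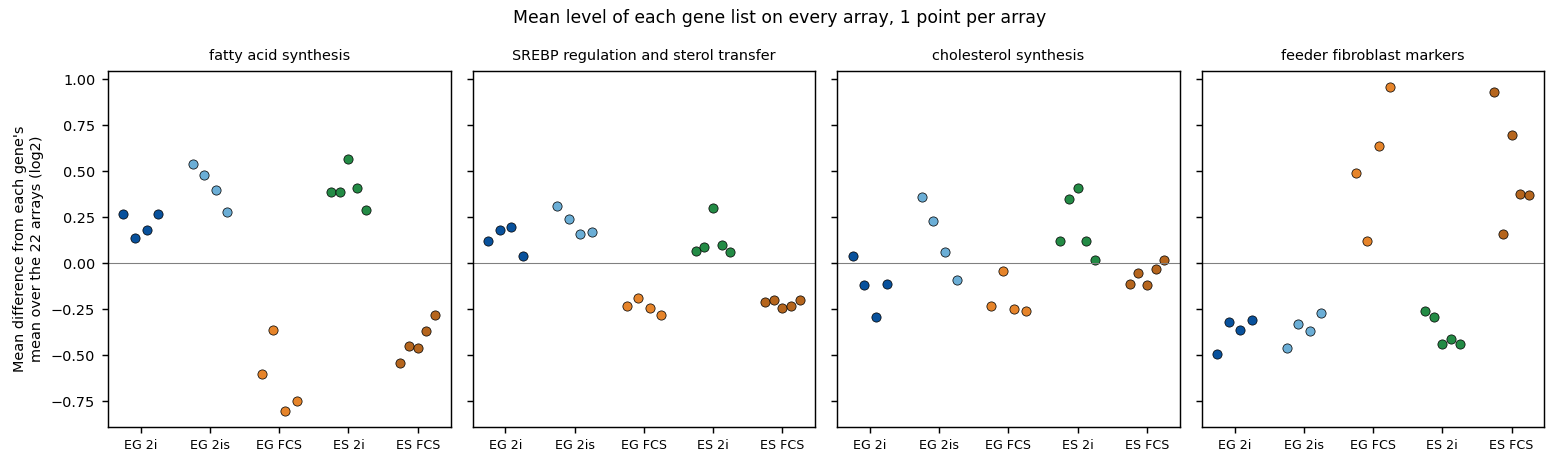
Mean log2 difference from each gene's own mean over the 22 arrays, 1 point per array, for the 3 parts of the list and for 21 fibroblast markers. Fatty acid genes and SREBP regulators are above 0 in every 2i or 2is sample and below 0 in every FCS sample, cholesterol genes overlap between EG 2i and EG FCS samples, and fibroblast markers run the other way.

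Direct derivation in 2i was compared with derivation through serum. For EG 2i against EG 2is samples 0 of 31 genes were called, beside 0% of all genes, while 11 of 31, or 35.5%, had an unadjusted p under 0.05, beside 10.6% of all genes. The smallest adjusted p was 0.211, for Srebf1, which differed by −0.38 ± 0.10 (SE) and was lower in all 4 EG 2i than in all 4 EG 2is samples. Pmvk differed by −0.50 with a 95% interval of −0.86 to −0.15, and Sqle by −0.47 with an interval of −0.79 to −0.14. The median over the 31 genes was −0.22, against 0.00 for all genes. A difference that misses the threshold does not show equal levels.

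The cell origins were compared within each culture. Between EG 2i and ES 2i samples 2 genes were called, 6.45% of the list, both lower in EG 2i, beside 3.72% of all genes called and 2.52% called lower. The log2 difference was −0.86 ± 0.19 (SE) for Pmvk (adjusted p = 0.016) and −0.36 ± 0.09 for Fdft1 (adjusted p = 0.0255), and the groups did not overlap for either. The count was 6 without EG 2i sample 1, 1 without EG 2i sample 2, EG 2i sample 4 or ES 2i sample 1, and 0 without EG 2i sample 3 or ES 2i sample 2. It was 0 in a fit of those groups alone, and 6 without the batch term, which rests on ES samples. Between EG FCS and ES FCS samples 0 genes were called, beside 0.01% of all genes, and 5, or 16.1%, had an unadjusted p under 0.05, beside 4.91% of all genes. Between EG 2is and ES 2i samples 0 were called, beside 0.0451% of all genes, and 0 had an unadjusted p under 0.05, beside 9.39% of all genes. The response to 2i itself, EG 2i over EG FCS minus ES 2i over ES FCS, differed for 0 of 31 genes, beside 1.44% of all genes, with 2, or 6.45%, at an unadjusted p under 0.05, which 15.8% of all genes reached. The 2 genes were Pmvk, at −0.74 ± 0.23 (adjusted p = 0.114), and Tm7sf2, at −0.56 ± 0.24 (adjusted p = 0.256).

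Other genes of lipid metabolism were counted in the same comparisons, EG 2i, EG 2is and ES 2i against FCS, where 23.9%, 25.6% and 31.6% of all genes were called. Of 11 measured genes of other SREBP targets and pathway proteins, 3 rose in EG 2i, 5 in EG 2is and 5 in ES 2i, with 0 falls (27.3%, 45.5% and 45.5% called). Me1, the malic enzyme that supplies NADPH, rose by 1.45, 1.65 and 1.48 in EG 2i, EG 2is and ES 2i (adjusted p = 1.6e-05, 1.8e-06 and 9.8e-07), and Lpin1, a phosphatidate phosphatase, by 0.95, 1.11 and 1.35 (adjusted p = 2.4e-04, 2.6e-05 and 4.6e-07). Acss2, which makes acetyl-CoA from acetate, and Aacs, which activates acetoacetate, rose in EG 2is by 0.66 and 0.82 (adjusted p = 0.00144 and 2.0e-04). In ES 2i they rose by 0.89 and 0.68 (adjusted p = 1.6e-05 and 2.5e-04), and in EG 2i the values were 0.28 and 0.29 (adjusted p = 0.175 and 0.172).

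Of 16 other fatty acid and triglyceride genes, 5 rose and 2 fell in EG 2i, 9 rose and 1 fell in EG 2is, and 8 rose and 3 fell in ES 2i (43.8%, 62.5% and 68.8% called). Elovl7, a fatty acid elongase, rose by 2.53 ± 0.23 in EG 2i, 2.78 ± 0.22 in EG 2is and 2.78 ± 0.19 in ES 2i (log2 ± SE; adjusted p = 2.3e-07, 3.0e-08 and 3.7e-09). Hacd3, a dehydratase of the elongation cycle, rose by 0.72, 0.92 and 0.82, and Acacb, the mitochondrial acetyl-CoA carboxylase, by 0.94, 1.25 and 1.28. Adjusted p for these ran up to 6.4e-04, for Acacb in EG 2i. Acsl5, an acyl-CoA synthetase, fell by 0.74 in EG 2i, 0.79 in EG 2is and 1.47 in ES 2i on the log2 scale (adjusted p = 0.0254, 0.0136 and 1.3e-05).

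Among 16 genes of lipid uptake, storage and export, 6 rose in EG 2i, 8 in EG 2is and 7 in ES 2i, with 0 falls (37.5%, 50% and 43.8% called). Scarb1, the HDL receptor, rose by 0.92, 1.13 and 0.87, and Lpl, the lipoprotein lipase, by 0.59, 0.91 and 1.38. Mylip, a ubiquitin ligase for lipoprotein receptors, rose by 0.77, 0.92 and 1.32, and Npc2, which moves cholesterol out of lysosomes, by 0.39, 0.75 and 0.82. The adjusted p of these 4 genes was at most 0.0208, for Npc2 in EG 2i. Of 13 genes of fatty acid oxidation, 3 rose and 1 fell in EG 2i, 5 rose and 1 fell in EG 2is, and 5 rose and 1 fell in ES 2i (30.8%, 46.2% and 46.2% called), with median log2 differences of 0.06, 0.09 and 0.11. Cpt1a, which admits fatty acids to mitochondria, rose by 1.39, 1.80 and 1.52 and the peroxisomal enzyme Ehhadh by 1.15, 1.33 and 1.14 (adjusted p at most 5.3e-04, for Cpt1a in EG 2i). Acadm, an acyl-CoA dehydrogenase, and Acaa2, a thiolase, rose in EG 2is by 0.50 and 0.83 and in ES 2i by 0.84 and 1.13 (adjusted p at most 0.0127), and gave 0.24 and 0.19 in EG 2i (adjusted p = 0.0967 and 0.645).

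Of 12 other sterol and isoprenoid genes, 0 rose and 1 fell in EG 2i, 1 rose and 1 fell in EG 2is, and 3 rose and 2 fell in ES 2i (8.33%, 16.7% and 41.7% called), so that the EG shares lay below those of all genes. Nus1, a subunit of the dehydrodolichyl diphosphate synthase, fell in all 3, by 0.24, 0.22 and 0.23 on the log2 scale (adjusted p = 0.0139, 0.0203 and 0.00422). Its partner subunit Dhdds rose in ES 2i by 0.30 (adjusted p = 0.00995), and Cyp27a1, a sterol hydroxylase, by 0.27 in EG 2is and 0.26 in ES 2i (adjusted p = 0.0494 and 0.0292). Cyp27a1 averaged 5.02 in EG FCS and 4.93 in ES FCS samples, close to the background level of 4.88. Ch25h, another sterol hydroxylase, was called lower in ES 2i at −0.22 (adjusted p = 0.00789), with group means of 4.53 in ES 2i and 4.75 in ES FCS that lie under the background level. Of 10 ERK target genes, 9 fell in EG 2i, 9 in EG 2is and 10 in ES 2i, with median log2 differences of −2.02, −2.10 and −2.12. Of all genes, 12.5%, 12.9% and 14.9% were called lower in these comparisons. The part of the inhibitors in these falls cannot be told apart from that of medium, serum and feeder layer.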

How the data were processed

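The authors deposited log2 RMA expression values, 1 for each of 28853 probe sets in 22 arrays. Per the submitters' processing notes the tools were Affymetrix Expression Console, RMA and limma. Their versions, and any batch adjustment, are not given in the sources used here. Probe sets were named from the platform annotation: 21789 had 1 symbol, 1621 several and 5443 none, and only those with 1 were used. The probe set of highest mean stood for a gene, which gave 19938 genes. The fit used limma 3.58.1 in R 4.3.3 (lmFit, eBayes) over all 22 arrays, with terms for group, labelled batch and labelled sex, two-sided and adjusted by Benjamini-Hochberg over all genes. It was also run on simulated data with independent normal noise and no batch or sex effects. That run does not show how the fit handles such effects. Group values are means ± SD, and the number of arrays limits their precision. Tables and figures used Python 3.11.15, pandas 2.3.3 and matplotlib 3.10.9. Members, lists and tests were chosen with earlier results of these data known. Values on every array are given for the 14 called members with the smallest adjusted p, and up to 4 called genes are named from each neighbouring list. Alternatives changed the covariates, samples, normalization, probe set rule, filter and prior.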

Additional observations from a re-analysis of the deposited data

Results flagged for a closer look

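Among the 14 genes given on every array, 4 of 70 groups held a sample far from the others of its group. Distance was judged by the gap to the nearest other sample over the range of the group. This ratio was 0.783 to 0.875 in the 4 groups. The number set for chance was about 1 in 20, or 3.5. It is only a rough guide, because the genes share the same arrays and the groups are not independent. Scd1 in ES 2i sample 5 was at 11.04, below the other 4 at 11.25 to 11.30. Srebf1 in ES FCS sample 1 was at 6.92, below the others at 7.15 to 7.22. Elovl6 in EG FCS sample 3 was at 9.09, below the others at 9.23 to 9.25. Msmo1 in EG FCS sample 2 was at 10.28, above the others at 9.91 to 9.97.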

How the results depend on the processing

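Of 54 calls in the 3 comparisons with FCS, 32 held under every alternative, among them all 12 of the desaturases and all 3 of Srebf1. With 1 sample left out, the members called numbered 11 to 14 for EG 2i against EG FCS (16 with all samples), 17 to 21 for EG 2is against EG FCS (20) and 13 to 18 for ES 2i against ES FCS (18). For EG 2i against ES 2i they numbered 0 to 6 (2). In ES batch 1 alone 8 were called, and in batch 2 alone, chosen after seeing the data, 12. EG 2i against ES 2i gave 6 without the batch term, 1 in batch 1, 0 in a fit of the groups compared and 1 with a replicate block. The replicate block gave 16, 21 and 18 members for EG 2i, EG 2is and ES 2i against FCS. Some EG samples of equal number differ in labelled sex, so in EG the block does not stand for a line. Equal numbers were not taken as pairs, because the labels do not say that they mark 1 line. In ES, equal numbers agree in labelled sex and batch between the cultures. The correlation of their deviations from group means was −0.01 to 0.24 in ES, where 2 of 5 matched their own number best. It was −0.13 to 0.07 in EG 2i and EG FCS samples. After batch and sex the values were −0.29 to −0.19 and −0.07 to 0.41. Those terms themselves constrain the deviations of so few ES arrays, so these correlations cannot decide whether ES numbers are pairs. Among 39 results of single genes that were not called, signs changed 13 times under other settings and 25 times with 1 sample left out, and 0 of the changed values was called. Calls were gained 9 times under other settings and 2 times with 1 sample left out, for 6 results: Idi1 (lower, adjusted p down to 0.00874), Nsdhl (0.0307), Dhcr7 (0.0156) and Fasn (0.031) in EG 2i, Cyp51 in EG 2is (down to 0.00894) and Sqle in ES 2i (down to 0.0252). Signs changed without the sex term for Hmgcs1 in EG 2i at 0.00, and Pmvk at −0.04 and Scap at 0.05 in EG 2is. With a sex term in each culture they changed for Pmvk in EG 2is at −0.02, and Mvd at 0.00 and Hsd17b7 at 0.01 in ES 2i. Batch 2 alone gave −0.09 for Hmgcs1 and −0.01 for Mvd in ES 2i, and batch 1 alone 0.04 for Cyp51 and 0.10 for Acaca. Quantile normalization repeated gave −0.04 for Pmvk in EG 2is, −0.05 for Mvd in ES 2i and 0.03 for Sqle in EG 2i. With 1 sample left out, results that changed sign ran from −0.01 to 0.22 (Hmgcs1) and −0.14 to 0.07 (Sqle) in EG 2i. In EG 2is they ran from −0.13 to 0.12 (Pmvk), −0.03 to 0.14 (Mvd), −0.07 to 0.07 (Scap) and −0.16 to 0.06 (Acaca). In ES 2i they ran from −0.03 to 0.12 (Hmgcs1), −0.09 to 0.09 (Mvd), −0.20 to 0.03 (Cyp51) and −0.13 to 0.07 (Hsd17b7). The cause was not tested.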
